A study of Homo sapiens with 42 samples.

Results

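RCH-ACV, titled RCH in the labels, is a human pre-B cell acute lymphoblastic leukaemia (B-ALL) line, and it is known to carry the E1099K substitution in NSD2. Expression in 3 RCH libraries with the short hairpin sh5 (sh5 1 to sh5 3) was compared with 3 RCH libraries with a non-targeting hairpin (NT 1 to NT 3), and these 6 libraries are 6 of the 42 samples in the series. They were chosen by line, arm and replicate number in the titles, and no measured value entered the choice. The text of the series names the hairpin sh2 as the NSD2 knockdown, whereas sh5 occurs in the titles alone. Its sequence and its delivery are not given in the sources used. Both arms are the same line, labelled as B-ALL cells of bone marrow origin, grown in serum-supplemented RPMI1640 with no treatment named, and both carry a hairpin. Further libraries used were the 3 RCH libraries with sh2, and 3 NT and 3 sh5 libraries each of RS411 (RS4;11) and SEM, which are B-ALL lines with a KMT2A-AFF1 fusion. The labels do not state that the replicates came from separate cultures, or whether a line was a pool or a clone. The p-values therefore cover only how these libraries vary, which may be technical.

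NSD2 is a SET-domain enzyme that dimethylates H3K36, a histone mark of gene bodies and intergenic chromatin that hinders methylation of H3K27 by the PRC2 complex. The E1099K change lies in the catalytic domain, raises its activity and recurs in childhood B-ALL. A short hairpin RNA is processed to a small interfering RNA that lowers the matching transcript, and because any hairpin can also act on other transcripts, studies commonly set one hairpin beside another.

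The 6 libraries held 26362307 to 54879265 reads assigned to genes. NT 1 and sh5 1 stood apart from the other NT and sh5 libraries. On the first principal component of log2 levels, which held 55.7% of the variance over the 9 RCH libraries, NT 1 lay at -4.39 against 24.6 and 26.7 for NT 2 and NT 3. On the same axis sh5 1 lay at -19.0 against 18.7 and 20.9 for sh5 2 and sh5 3. The closest library to sh5 1 by correlation across genes was sh2 3 (Pearson r = 0.987), and NT 2 correlated more closely with sh5 2 (0.991) than with NT 3 (0.988). The replicate number was kept as a block by design. Deviations from the arm means correlated within each same-numbered NT and sh5 pair (r = 0.778, 0.614 and 0.336). NT 3 with sh5 2 (0.467) and NT 2 with sh5 3 (0.392), however, correlated more closely than NT 3 with sh5 3. The numbers are therefore not shown to pair the libraries numbered 2 and 3. All 14 precursor B-cell markers were measured, with a summed level of 5727 to 8274 CPM in NT and 6003 to 8400 CPM in sh5. CPM is the read count of a gene relative to the library size, scaled by TMM factors. Of 22 T and NK cell markers 16 were under 1 CPM in every NT and sh5 library and CD3D, CD3E, CD3G, CD2, GNLY and GZMB had no read, as had S100A8, CD163 and FCN1 of 16 myeloid markers. Other members were read, and the summed level was 210 to 283 CPM for the T and NK list and 22.7 to 31.6 CPM for the myeloid list. It was 217 to 477 CPM for 16 erythroid and megakaryocyte markers, of which 8 had no read. For 17 stromal and epithelial markers it was 1160.5 to 1634 CPM, almost wholly from a few members, as 11 were under 1 CPM in every NT and sh5 library. So were 10 of the 16 myeloid and 12 of the 16 erythroid and megakaryocyte markers. Markers of other lineages were thus not all absent.

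NSD2 (listed as WHSC1) stood lower with sh5. Its level was 327, 344 and 352 CPM in NT 1, NT 2 and NT 3, and 151, 227 and 209 CPM in sh5 1, sh5 2 and sh5 3. Every sh5 library lay below every NT library, and the means were 341 ± 12.8 and 196 ± 39.3 CPM (SD, n = 3 each). The log2 fold change was -0.83 ± 0.15 (SE), a 1.78-fold difference, yet with all 9 RCH libraries in the edgeR fit it missed the threshold of an adjusted p under 0.05 (adjusted p = 0.0662). It passed when the NT and sh5 libraries were fitted alone with the block (log2 -0.82, adjusted p = 5.95e-04), and with DESeq2 on the 9 libraries (log2 -0.83, adjusted p = 1.21e-04). Of 12 edgeR fits that left out libraries, NSD2 passed in 3. Without sh2 1 the adjusted p was 8.67e-04, without sh2 3 it was 0.0153 and without all libraries numbered 1 it was 0.00174. When any single NT or sh5 library was left out it did not pass (adjusted p = 0.182 to 0.497). Without the block the adjusted p was 0.508, and 0.264 with the NT and sh5 libraries alone and no block. The log2 fold change ran from -0.94 to -0.63 when libraries were left out. With sh2, NSD2 was at 142, 205 and 252 CPM, and the sh5 and sh2 levels differed by log2 -0.02 ± 0.15 (adjusted p = 0.966). NSD1 (log2 0.10 ± 0.11) and NSD3, listed as WHSC1L1 (0.09 ± 0.11), the other members of the NSD family, and SETD2, the H3K36 trimethylase (0.15 ± 0.11), did not pass.

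**Figure D1:**
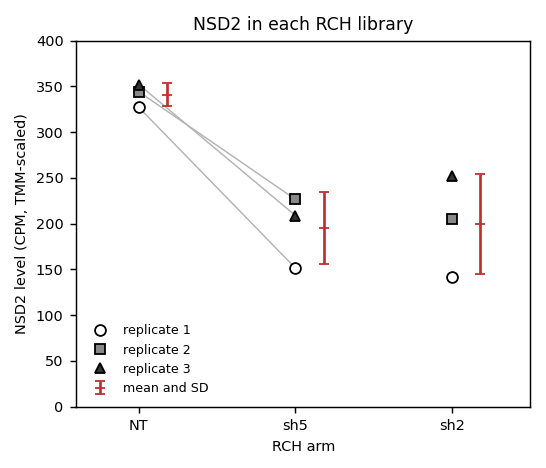
NSD2 level (CPM, linear axis from 0) in each RCH library by arm, with the replicate number as the symbol, grey lines joining same-numbered NT and sh5 libraries, and the mean and SD in red. The 3 sh5 libraries sit between 151 and 227 CPM, below the NT libraries at 327 to 352 CPM.

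Few genes passed the test between sh5 and NT, and nearly all of them were higher with sh5. Of 17468 genes tested, 46 (0.263%) passed, of which 42 rose (0.24%) and 4 fell (0.0229%). Among the 46, 43 showed no overlap between the 3 NT and the 3 sh5 libraries, where 9.1% of all tested genes had none. All 46 went the same way in each same-numbered pair, and 38 differed at least 2-fold. At an unadjusted p under 0.05 there were 1031 genes. The count depended on the libraries and the block. The NT and sh5 libraries fitted alone with the block gave 536 genes (3.12%), of which 230 rose and 306 fell, and DESeq2 on 9 libraries gave 183 (1.05%). Without the block 4 genes passed (0.0229%). All 46 genes were among those called by the fit of the NT and sh5 libraries alone and by DESeq2. Leaving out sh2 1 gave 431 genes, sh2 3 gave 117, and all libraries numbered 1 gave 292 (1.69%). Leaving out sh5 2 gave 16, NT 1 gave 15, sh5 1 gave 12, NT 3 gave 1, and all libraries numbered 2 gave 6. No gene passed in edgeR without NT 2 (769 at an unadjusted p under 0.05), without sh5 3 (1028) or without all libraries numbered 3 (1177).

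**Figure D2:**
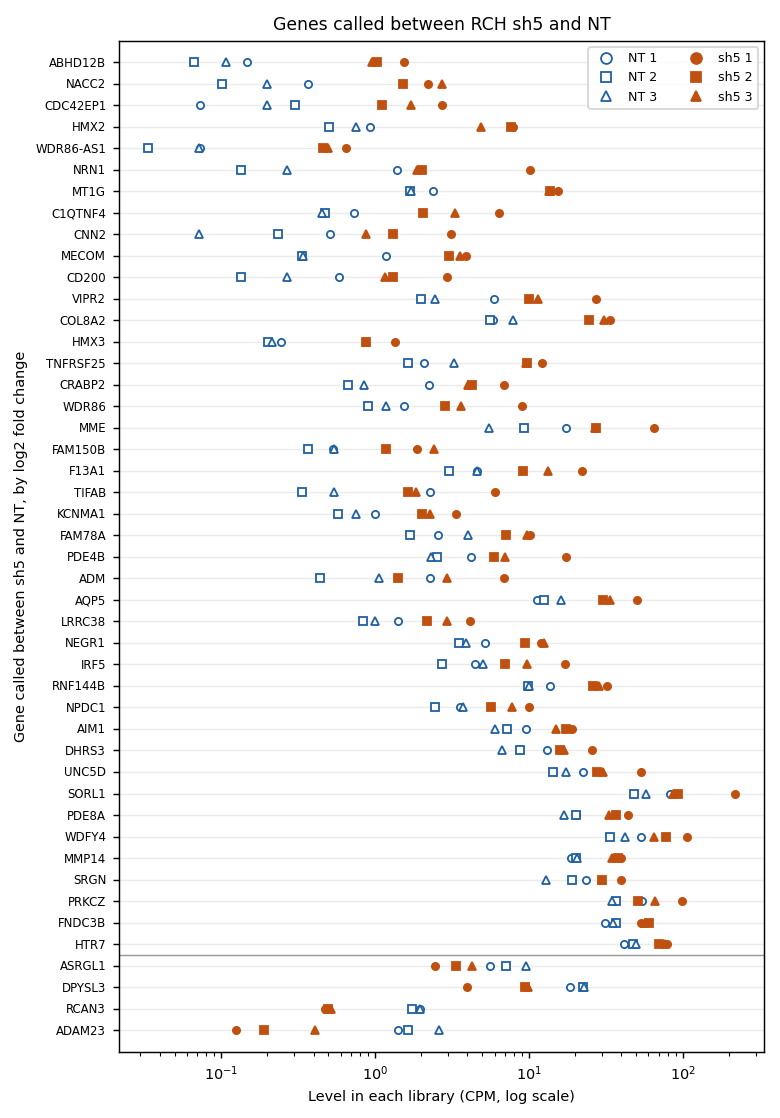
Level of each of the 46 genes in each NT library (open blue) and sh5 library (filled orange), in CPM on a log axis, ordered by log2 fold change, with the replicate number as the symbol. The grey line parts the 4 genes that fell from the 42 that rose, and the groups overlap for TIFAB, ADM and PRKCZ.

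The 4 genes that fell were ADAM23, RCAN3, DPYSL3 and ASRGL1. DPYSL3 encodes a cytoskeletal adaptor of neuronal growth cones. It was at 18.5, 22.7 and 23.0 CPM in NT and at 4.0, 9.48 and 9.85 CPM in sh5, with sh5 1 the lowest, for a log2 fold change of -1.58 ± 0.25 (adjusted p = 0.0384). ADAM23, an ADAM family protein without protease activity that binds integrins, was at 1.42 to 2.60 CPM in NT and 0.126 to 0.407 CPM in sh5 (log2 -3.01 ± 0.36, adjusted p = 0.0123). RCAN3, a regulator of the phosphatase calcineurin, was at 1.75 to 1.98 CPM in NT and 0.478 to 0.523 CPM in sh5 (log2 -1.92 ± 0.30). ASRGL1, an enzyme with asparaginase activity, was at 5.58, 7.11 and 9.65 CPM in NT and 2.46, 3.38 and 4.30 CPM in sh5 (log2 -1.14 ± 0.19). In all 4 genes the arms did not overlap. DPYSL3, RCAN3 and ASRGL1 passed in 3 of 12 fits that left out libraries and ADAM23 in 5 of 12.

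Several of the genes that rose encode surface receptors or adhesion proteins. MME, the membrane peptidase known as CD10 and used to type B-ALL, was at 17.6, 9.30 and 5.49 CPM in NT and 64.9, 27.3 and 27 CPM in sh5. The lowest sh5 library lay above the highest NT library, and the log2 fold change was 1.93 ± 0.23 (adjusted p = 0.0164). VIPR2, a receptor for vasoactive intestinal peptide that signals through cAMP, was at 5.97, 1.99 and 2.47 CPM in NT and 27.2, 10.1 and 11.5 CPM in sh5 (log2 2.22 ± 0.27, adjusted p = 0.0162). TNFRSF25, a death-domain receptor of the TNF receptor family, was at 1.65 to 3.27 CPM in NT and 9.55 to 12.2 CPM in sh5 (log2 2.16 ± 0.26). NT 1 and sh5 1 were the highest library of their arm for MME and VIPR2. NRN1, a small GPI-anchored protein known from neurites, had 1.40, 0.135 and 0.271 CPM in NT and 10.2, 2.03 and 1.89 CPM in sh5 (log2 2.98 ± 0.29, adjusted p = 0.00682). NEGR1, an adhesion molecule of the immunoglobulin family, had 3.54 to 5.19 CPM in NT and 9.44 to 12.7 CPM in sh5 (log2 1.46 ± 0.21). CD200, a surface glycoprotein that restrains myeloid cells through its receptor, rose from at most 0.587 CPM to 1.16 to 2.94 CPM (log2 2.42 ± 0.31). UNC5D, a netrin receptor, rose by a log2 fold change of 1.00 ± 0.16, and SORL1, an endosomal sorting receptor, by 0.98 ± 0.16. HTR7, a serotonin receptor, was at 41.6, 47.9 and 49.7 CPM in NT and 79.3, 69.8 and 76.4 CPM in sh5, the smallest rise among the 42 (log2 0.70 ± 0.12, adjusted p = 0.0465).

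Genes of matrix proteins, secreted proteins and channels were also among the 42. COL8A2, a chain of collagen VIII, was at 5.82, 5.59 and 7.92 CPM in NT and 33.8, 24.8 and 31.0 CPM in sh5, so that the arms were well apart (log2 2.19 ± 0.21, adjusted p = 0.00682). It was also 1 of the 4 genes that passed without the block (adjusted p = 0.0374), beside ABHD12B, TNFRSF25 and RNF144B. MMP14, a membrane-bound matrix protease, was at 18.8, 20.4 and 20.5 CPM in NT and 40.1, 37.9 and 34.9 CPM in sh5 (log2 0.92 ± 0.13, adjusted p = 0.0210). F13A1, the catalytic chain of coagulation factor XIII, was at 4.65, 3.03 and 4.58 CPM in NT and 22.3, 9.21 and 13.5 CPM in sh5 (log2 1.85 ± 0.27). These genes differ in how tightly the sh5 libraries cluster, with MMP14 the tightest of the 3. SRGN, the core protein of granule proteoglycans, rose by a log2 fold change of 0.88 ± 0.15. ADM, the precursor of the peptide adrenomedullin, rose by 1.57 ± 0.23, although NT 1 (2.30 CPM) lay above sh5 2 (1.42 CPM). AQP5, a water channel, was at 11.3, 12.6 and 16.2 CPM in NT and 50.8, 30.5 and 33.7 CPM in sh5 (2.83-fold, SE 0.20 on the log2 scale). KCNMA1, the pore of the BK potassium channel, and LRRC38, an auxiliary subunit of the same channel, rose by log2 1.71 ± 0.28 and 1.49 ± 0.23.

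Others of the 42 encode transcription factors and signalling enzymes. HMX2, a homeobox factor, was at 0.930, 0.505 and 0.758 CPM in NT and 7.90, 7.64 and 4.94 CPM in sh5 (log2 3.14 ± 0.34, adjusted p = 0.0109). The related HMX3 rose at lower levels, from 0.202 to 0.245 CPM in NT to 0.871 to 1.36 CPM in sh5 (log2 2.17 ± 0.36). MECOM, a zinc-finger factor of blood stem cells, rose from 1.17, 0.337 and 0.343 CPM to 3.92, 3.03 and 3.57 CPM (log2 2.66 ± 0.37, adjusted p = 0.0215). Both HMX2 and MECOM were thus low in every NT library. IRF5, an interferon regulatory factor, rose by log2 1.42 ± 0.24. PDE4B, a phosphodiesterase that breaks down cAMP, was at 4.23, 2.53 and 2.33 CPM in NT and 17.5, 5.91 and 7.0 CPM in sh5 (log2 1.65 ± 0.24), and PDE8A, another cAMP phosphodiesterase, rose by 0.98 ± 0.12. CRABP2, which binds retinoic acid, and DHRS3, a reductase of retinaldehyde, rose by log2 2.13 ± 0.25 and 1.06 ± 0.17. RNF144B, a ubiquitin ligase, was at 13.8, 9.87 and 10.1 CPM in NT and 32.3, 26.1 and 28.6 CPM in sh5 (log2 1.37 ± 0.14, adjusted p = 0.00682). No other gene had a smaller p, and RNF144B passed in 7 of 12 fits with libraries left out. The largest rise of all was ABHD12B, a hydrolase-like protein (log2 3.35 ± 0.38), at 0.0674 to 0.147 CPM in NT and 0.958 to 1.56 CPM in sh5. WDR86 rose by 1.97 ± 0.30 and its antisense gene WDR86-AS1 by 3.00 ± 0.49. The strand setting of the counting was not stated, so reads of these overlapping genes may not be told apart.

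MT1G, a metallothionein, rose 7.57-fold. Metallothioneins are small cysteine-rich proteins that bind zinc and copper, and metals induce them through metal response elements in their promoters. The remaining members were looked at after their values were seen, and because these genes are near-identical copies, reads may be split between them. MT1G was at 2.37, 1.68 and 1.73 CPM in NT and 15.6, 13.7 and 13.7 CPM in sh5 (log2 2.92 ± 0.31, adjusted p = 0.0109). MT1H was at 0.905, 0.943 and 1.34 CPM in NT and 10.8, 9.44 and 10.8 CPM in sh5. Its log2 fold change of 3.24 ± 0.56 did not pass in the 9-library fit (adjusted p = 0.115) and passed with the NT and sh5 libraries alone (adjusted p = 9.68e-10). MT1F (log2 1.27 ± 0.23, adjusted p = 0.0696) and MT2A (0.71 ± 0.29, adjusted p = 0.725) showed the same split, with adjusted p of 0.00213 and 0.0452 in the NT and sh5 libraries alone. MT1X was at 51.3, 37.4 and 46.7 CPM in NT and 38.3, 48.4 and 51.5 CPM in sh5, so that the arms overlapped (log2 0.03 ± 0.16, adjusted p = 0.999). The promoters of MT1H and MT1X are shown because these members lie at the ends of this range, each as RefSeq sequence of GRCh38.p14 from 250 bases before to 50 bases after the start on the plus strand. No promoter sequence of MT1G or MT1F was available. The matches below therefore say nothing about MT1G, the only member that passed in the 9-library fit. Capitals mark matches to the core of the metal response element, TGCACNC or TGCGCNC, on either strand.
MT1H, chr16:56669564-56669863: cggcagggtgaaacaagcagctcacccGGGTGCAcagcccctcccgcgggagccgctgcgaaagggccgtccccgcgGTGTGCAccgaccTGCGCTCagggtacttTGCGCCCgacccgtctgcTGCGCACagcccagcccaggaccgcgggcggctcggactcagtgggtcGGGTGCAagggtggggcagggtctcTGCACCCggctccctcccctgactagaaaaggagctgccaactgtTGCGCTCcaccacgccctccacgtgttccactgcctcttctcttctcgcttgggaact
MT1X, chr16:56682220-56682519: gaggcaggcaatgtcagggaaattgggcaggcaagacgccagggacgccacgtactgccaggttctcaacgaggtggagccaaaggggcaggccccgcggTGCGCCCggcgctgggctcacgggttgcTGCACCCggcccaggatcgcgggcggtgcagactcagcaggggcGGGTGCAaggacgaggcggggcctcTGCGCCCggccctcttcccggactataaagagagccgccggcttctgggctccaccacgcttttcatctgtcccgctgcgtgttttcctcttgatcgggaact
MT1H held 8 matches, as did MT2A (chr16:56608334-56608633), and MT1X held 4. Of 35116 promoters of this length 29.6% held at least 1 match, 0.601% at least 4 and 0.0199% at least 8. A match is a run of letters in this window, and MT1X, whose arms overlapped, held several as well.

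The 46 gene lists of pathways and cell types were described by how many members passed. In the 9-library fit 6 of 930 tested list members passed (0.645%, against 0.263% of all genes), and all 6 rose: MME, MECOM, ADM, UNC5D, MMP14 and KCNMA1. With the NT and sh5 libraries alone 68 of 921 members passed, 36 higher (3.91%) and 32 lower (3.47%), against 1.34% and 1.78% of all genes tested there. The lists were chosen with results of these libraries known, so these shares are a description. No list member passed without the block (78 at an unadjusted p under 0.05), and DESeq2 on the 9 libraries gave 29. The median log2 fold change over all genes was -0.01, with 8407 of 17468 genes above 0 and 9061 below. Members of a list can move together, so counts by direction are a description. The lists described in more detail were chosen after their values were seen. Of the Wnt pathway list, ligands, receptors and inhibitors of a developmental signalling route, none of 34 tested members passed in the 9-library fit (median log2 -0.07). With the NT and sh5 libraries alone NOTUM and WNT10B were higher and the receptors FZD4, FZD7 and FZD8 lower. FZD8 was at 8.64, 7.18 and 9.18 CPM in NT and 3.70, 3.76 and 6.80 CPM in sh5 (log2 -0.87 ± 0.22, adjusted p = 0.242 in the 9-library fit), and every sh5 library lay below every NT library. Of the ion channels, KCNMA1 was higher and CACNA2D4, SCN3A and SCN8A were lower with the NT and sh5 libraries alone.

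Among ERK feedback genes and ETV factors, which are transcribed when the ERK kinases are active, 13 of 16 tested members had a log2 fold change below 0 (median -0.28). Over all genes 9061 of 17468 lay below 0. No member of the list passed in the 9-library fit. With the NT and sh5 libraries alone 5 were lower (DUSP4, ETV1, ETV4, ETV5 and SPRY4) and EPHA2 was higher. Of all genes tested there 1.78% were lower and 1.34% higher. ETV4 was at 4.53, 6.47 and 6.66 CPM in NT and 1.38, 1.92 and 2.44 CPM in sh5, with no overlap (log2 -1.62 ± 0.28, adjusted p = 0.0512 in the 9-library fit and 2.42e-05 in the other). ETV5 was at 162, 289 and 217 CPM in NT and 85.8, 203 and 136 CPM in sh5. Its arms overlapped, while sh5 was the lower library of each pair. DUSP6, a phosphatase of ERK, passed in neither fit (log2 -0.38 ± 0.28).

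Among adhesion and guidance receptors UNC5D, of 34 tested axon guidance genes, was the only member that passed in the 9-library fit, and it rose. With the NT and sh5 libraries alone UNC5D and EPHA2 were higher and EPHA7, NEO1, ROBO3 and SLIT2 were lower. The shares over all genes in that fit were 1.34% higher and 1.78% lower. SLIT2, a ligand of ROBO receptors, was at 3.16, 3.61 and 4.57 CPM in NT and 0.553, 1.57 and 1.25 CPM in sh5 (log2 -1.84 ± 0.37, adjusted p = 0.101 and 1.24e-04 in the 2 fits). Of 16 tested cadherins CDH2, FAT4 and PCDH9 were lower in the NT and sh5 libraries alone and CDH3 was higher. CDH2, or N-cadherin, was at 50.8, 64.5 and 59.0 CPM in NT and 24.2, 32.9 and 38.3 CPM in sh5. The arms did not overlap. In the 9-library fit the standard error was 0.57 on a log2 fold change of -0.93 (adjusted p = 0.999, against 1.09e-04 in the NT and sh5 libraries alone). The sh2 libraries were at 2.39, 16.1 and 30.6 CPM, and their part in this gap between the fits was not tested. Receptor-type tyrosine phosphatases had a median of -0.29 over 13 members, with PTPRD, PTPRM and PTPRS lower and PTPRC higher in that smaller fit. ICAM1, an adhesion receptor of the immunoglobulin superfamily, was higher there. No list member passed in edgeR's test on the NT and sh5 libraries alone without the block (82 over all lists at an unadjusted p under 0.05).

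Of 11 tested stem and progenitor regulators MECOM rose in the 9-library fit. With the NT and sh5 libraries alone LMO2, FLT3 and MECOM were higher and KIT was lower. Of all genes in that smaller fit 1.34% were higher and 1.78% lower. LMO2, a cofactor of haematopoietic transcription complexes, was at 37.8, 37.8 and 40.9 CPM in NT and 58.6, 54.5 and 68.9 CPM in sh5 (log2 0.64 ± 0.11, adjusted p = 0.0662 in the 9-library fit). KIT, the receptor of stem cell factor, was at 12.3, 9.06 and 5.52 CPM in NT and 2.29, 3.42 and 1.66 CPM in sh5 (log2 -1.92 ± 0.78, adjusted p = 0.830). In both genes every sh5 library lay outside the NT range. In the BCL2 family, which governs mitochondrial apoptosis, none of 13 members passed in the 9-library fit. In the smaller fit the pro-apoptotic BIK, BBC3 and BCL2L11 were higher and BCL2, an inhibitor of apoptosis, was lower. BCL2 was at 248, 343 and 319 CPM in NT and 120, 246 and 210 CPM in sh5 (log2 -0.70 ± 0.14, adjusted p = 0.103 and 0.00289). BCL2L11, which encodes BIM, was at 11.0, 11.6 and 13.8 CPM in NT and 19.4, 23.7 and 17.6 CPM in sh5 (log2 0.71 ± 0.18, adjusted p = 0.220 and 0.00382).

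Of 42 interferon-stimulated genes 39 had a log2 fold change above 0 (median 0.26), against 8407 of all 17468 genes. No member of the list passed in the 9-library fit. In the smaller fit 6 of 41 were higher and none lower, namely OAS2, GBP1, XAF1, EPSTI1, IFI44 and MX1. Over all genes of that fit 1.34% were higher and 1.78% lower. IFI44 was at 1.59, 1.42 and 1.17 CPM in NT and 4.05, 4.95 and 3.34 CPM in sh5 (log2 1.56 ± 0.30, adjusted p = 0.0887 and 1.44e-04). The median of the list was above 0 in each pair, at 0.12, 0.37 and 0.29, with 29, 36 and 35 of 42 members above 0. MS4A1, which encodes the mature B-cell antigen CD20, was higher in the smaller fit, at 2.67, 2.43 and 0.722 CPM in NT and 7.95, 7.06 and 2.82 CPM in sh5 (log2 1.71 ± 0.36, adjusted p = 0.176 in the 9-library fit). In each fit no member passed among the B-lineage transcription factors (20 tested), the pre-B receptor and V(D)J recombination genes (17), the S-phase genes (30), the G2 and M phase genes (30) or the DNA mismatch repair genes (21). PAX5 stood at 412, 424 and 480 CPM in NT and 462, 429 and 347 CPM in sh5. The arms overlapped.

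In some lists the pairs differed. The amino acid stress response, which ATF4 drives, had 28 of 28 members above 0 and a median of 0.52, but no member passed in either fit. The median was 1.48 in the pair numbered 1, 0.02 in the pair numbered 2 and -0.12 in the pair numbered 3. Its summed level was 1960, 2698 and 2635 CPM in NT and 4701, 2714 and 2509 CPM in sh5. DDIT3, a stress transcription factor of this list, was at 9.0, 10.3 and 13.4 CPM in NT and 86.7, 10.4 and 12.1 CPM in sh5. SESN2, a sensor of leucine, was at 9.54, 10.5 and 12.9 CPM in NT and 79.0, 11.1 and 9.73 CPM in sh5. Thus sh5 1 held the rise alone, the library that stood apart above, and the sh2 libraries held 25.7, 80.3 and 44.8 CPM of DDIT3. Cytosolic ribosomal proteins had 37 of 37 members below 0 (median -0.13), with pair medians of -0.25, -0.24 and 0.13. Mitochondrially encoded transcripts had a median of -0.24, and their summed level was 1121, 1147 and 1431 CPM in NT and 1091, 1232 and 812 CPM in sh5, lowest in sh5 3. No member of these 2 lists passed in either fit. The part of these features in the results above was not tested.

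**Figure D3:**
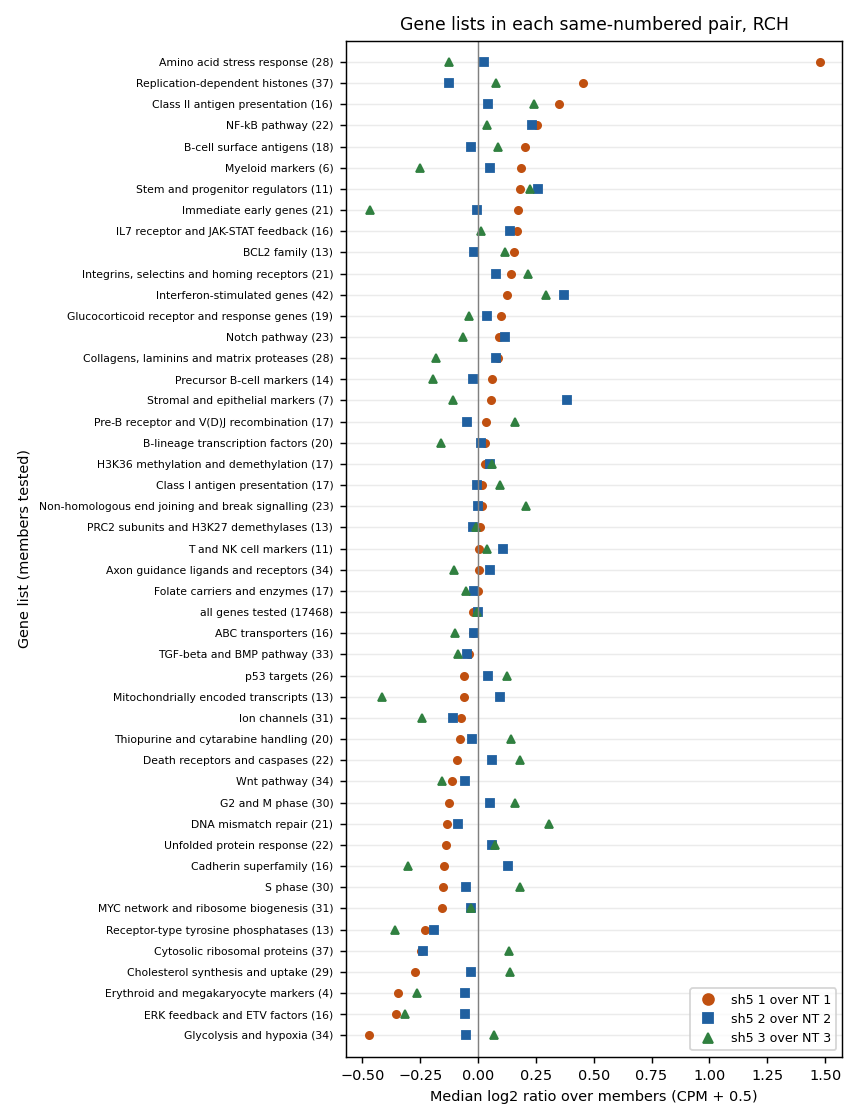
Median log2 ratio of sh5 to NT over the members of each gene list, in each same-numbered pair of RCH libraries (symbols), on CPM plus 0.5, with the number of members tested in brackets and all genes as a further line. The amino acid stress response lies at 1.48 in the pair numbered 1 and near 0 in the others, and interferon-stimulated genes lie above 0 in each pair.

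The hairpins sh5 and sh2 were compared directly to see where they differ in the same line. Between sh5 and sh2, 343 genes passed (1.96%), of which 86 (0.492%) were higher and 257 (1.47%) lower with sh5. Of the 46 genes that passed between sh5 and NT, 13 also differed between the hairpins. Of these, 12 had risen with sh5 and were lower with sh5 than with sh2: CNN2, MME, WDR86, HMX2, PDE4B, UNC5D, CD200, VIPR2, NRN1, NEGR1, ADM and SORL1. DPYSL3, which had fallen, was higher with sh5 than with sh2. CNN2, a calponin of the actin cytoskeleton, was at 0.0722 to 0.514 CPM in NT, 0.871 to 3.12 CPM in sh5 and 6.56 to 22.9 CPM in sh2, for an sh5 minus sh2 difference of log2 -3.20 ± 0.26 (adjusted p = 0.00140). MME differed by log2 -2.66 (adjusted p = 0.00317). For the remaining 33 genes the difference did not pass, which does not show that the hairpins act alike. RNF144B differed by 0.16 (adjusted p = 0.553), COL8A2 by -0.25 (adjusted p = 0.554) and FNDC3B by 0.01 (adjusted p = 0.976). Against the same NT libraries 1623 genes passed with sh2 (9.29%), and the shared libraries mean that the sh5 and sh2 values against NT are not independent.

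**Figure D4:**
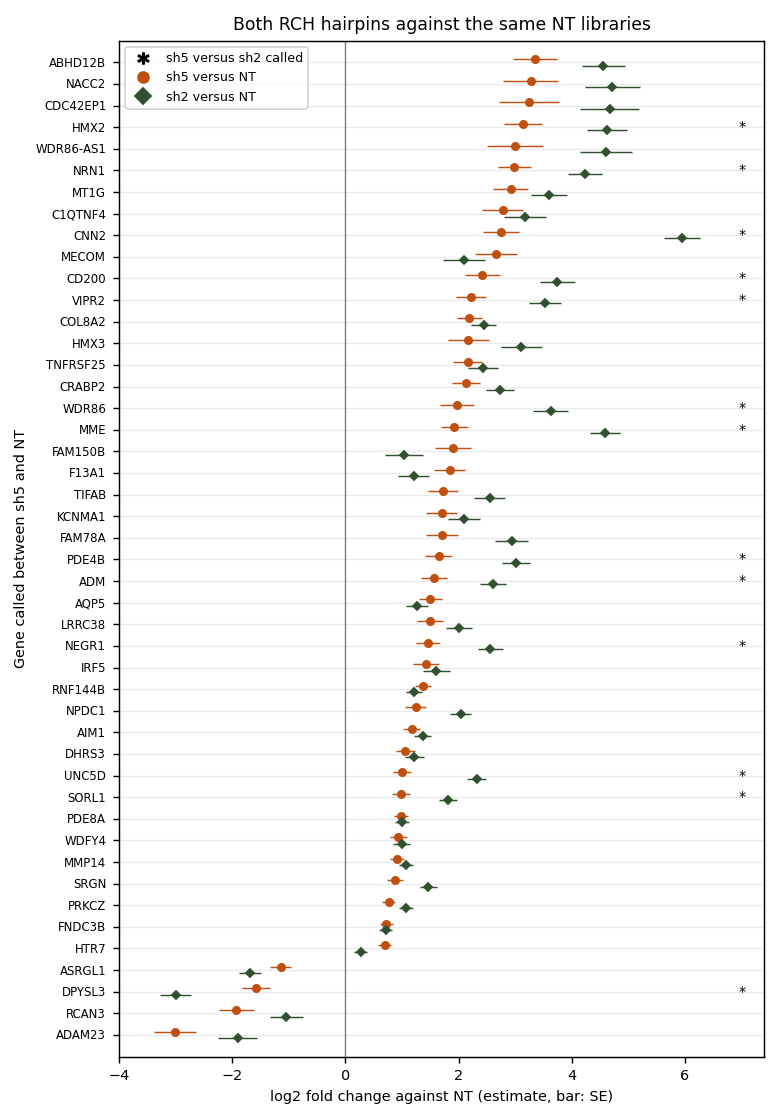
Log2 fold change against NT (estimate, bar: SE) of the 46 genes that passed between sh5 and NT, for sh5 (orange circles) and sh2 (green diamonds), with a star where sh5 and sh2 differed at an adjusted p under 0.05. Of the 13 starred genes, 12 rose less with sh5 than with sh2, and DPYSL3 fell less.

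Among the genes named for the largest differences between the hairpins, CNN2 was the only one that also passed between sh5 and NT in the 9-library fit. With the NT and sh5 libraries alone MS4A1, SUCNR1 and GJA1 passed as well, all higher with sh5 (adjusted p = 2.13e-05, 1.89e-04 and 0.00739). RGS1, a regulator of G-protein signalling in lymphocytes, was at 1.71, 0.809 and 0.668 CPM in NT, 2.16, 0.959 and 0.697 CPM in sh5 and 33.0, 10.6 and 5.06 CPM in sh2 (sh5 minus sh2, log2 -3.47 ± 0.28, adjusted p = 0.00140). IKZF2, a zinc-finger factor of the Ikaros family, was at 1.62 to 5.85 CPM in NT, 2.59 to 9.68 CPM in sh5 and 14.7 to 44.4 CPM in sh2 (log2 -2.83 ± 0.28). In both genes every sh5 library lay below every sh2 library. MS4A1, SUCNR1, a succinate receptor, and ZBTB46, a zinc-finger factor of dendritic cells, were also lower with sh5 than with sh2, by log2 -3.06, -2.84 and -2.82. In the other direction, GJA1, a gap junction protein, was at 68.7, 69.1 and 65.7 CPM in NT, 81.0, 148 and 135 CPM in sh5 and 18.1, 43.2 and 40.8 CPM in sh2 (log2 1.86 ± 0.23, adjusted p = 0.00654). HOXA5, a homeobox factor, was at 1.98, 4.01 and 4.35 CPM in NT, 3.42, 6.6 and 5.87 CPM in sh5 and 0.655, 1.84 and 1.60 CPM in sh2 (log2 2.00 ± 0.24, adjusted p = 0.00396). For these 2 genes the sh5 and sh2 means lay on opposite sides of the NT mean, and sh5 against NT did not pass in the 9-library fit (adjusted p = 0.380 and 0.515). LRRC3B, AFAP1, HS6ST2 and ARNTL2 were higher with sh5 than with sh2 by log2 1.85, 1.73, 1.69 and 1.61. DESeq2 gave 944 genes between the hairpins and the fit without the block gave none (1714 at an unadjusted p under 0.05). Leaving out sh5 3 gave 1 gene, sh5 2 gave 33, sh2 2 gave 30 and sh2 1 gave 2850.

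The response to sh5 was then compared between RCH and the lines RS411 and SEM, in 1 fit of 18 libraries and 19554 genes. NSD2 was at 285, 320 and 300 CPM in NT and 164, 140 and 206 CPM in sh5 in RS411, and at 333, 334 and 366 CPM in NT and 132, 146 and 147 CPM in sh5 in SEM. The sh5 effect on NSD2 in RCH was log2 -0.82 ± 0.11 in this fit (adjusted p = 8.01e-05) and differed from SEM by 0.46 ± 0.15 (adjusted p = 0.0735) and from RS411 by 0.02 ± 0.15 (adjusted p = 0.994). In this fit 805 genes (4.12%) passed between sh5 and NT in RCH, 699 (3.57%) in RS411 and 3196 (16.3%) in SEM. In SEM 7.91% of the tested genes rose and 8.43% fell, and in RS411 2.18% rose and 1.4% fell. The effect differed between RCH and SEM for 1191 genes (6.09%; 3.2% higher in RCH, 2.89% lower) and between RCH and RS411 for 359 genes (1.84%; 0.69% higher, 1.15% lower). Of the 46 RCH genes, 18 had a higher effect in RCH than in SEM and 4 a lower one, and 19 had a higher effect than in RS411 and 3 a lower one. For 15 the effect differed from both lines in the same direction, and for 19 it passed against neither. The 46 genes were chosen on the same RCH libraries, 42 of them for a rise, which favours a larger effect in RCH. These counts are therefore a description. Without the block 343 and 78 genes differed from SEM and RS411, without NT 3 of RCH 2205 and 1623, and without sh5 3 of RCH 2176 and 1692.

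HMX2 rose with sh5 in RCH and was at 5.30, 6.30 and 5.62 CPM in NT and 5.93, 8.58 and 5.22 CPM in sh5 in RS411, so that the effects differed by log2 2.99 ± 0.27 (adjusted p = 9.97e-07). MT1G likewise was at 10.8, 8.56 and 10.5 CPM in NT and 9.04, 9.03 and 11.0 CPM in sh5 in RS411, a difference of 2.94 ± 0.20 (adjusted p = 2.51e-08). RS411 thus held in both arms a level near that of RCH with sh5, while SEM held at most 0.239 CPM of HMX2 and 0.316 CPM of MT1G. RNF144B rose in RCH and fell in SEM from 1.08, 0.939 and 1.21 CPM to 0.211, 0.160 and 0.186 CPM (difference of effects 3.89 ± 0.28, adjusted p = 2.31e-08). Of the 46 genes, KCNMA1 and ADM also fell in SEM. RCAN3 fell in RCH alone among the 3 lines and differed from SEM by -2.06 ± 0.19 and from RS411 by -2.13 ± 0.19, at a level of at least 24.2 CPM in those lines. WDFY4, a protein of antigen cross-presentation, was likewise higher in effect in RCH, by 1.00 ± 0.12 against SEM and 1.05 ± 0.12 against RS411, and MMP14 by 0.77 ± 0.11 and 0.73 ± 0.12.

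Other genes responded in the same direction in several lines. Of the 46, 12 passed in the same direction in SEM and 12 in RS411, and DHRS3, PDE8A, SRGN, FNDC3B and HTR7 passed in both. FNDC3B, a membrane protein with fibronectin domains, was at 32.9, 36.9 and 35.1 CPM in NT and 57.1, 59.8 and 57.4 CPM in sh5 in RCH. It was at 24.7, 21.2 and 25.5 CPM in NT and 38.6, 35.8 and 32.6 CPM in sh5 in RS411. In SEM it was at 14.3, 16.8 and 13.3 CPM in NT and 32.9, 32.1 and 33.0 CPM in sh5. The arms did not overlap in any of the 3 lines, and the RCH effect of log2 0.73 ± 0.09 did not pass as different from SEM (-0.41 ± 0.13, adjusted p = 0.0621) or RS411 (0.15 ± 0.13, adjusted p = 0.790). SRGN had effects of 0.88 ± 0.11 in RCH, 0.97 ± 0.10 in SEM and 0.72 ± 0.10 in RS411. For HTR7 the RCH effect missed the threshold in the 18-library fit (adjusted p = 0.0724).

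**Figure D5:**
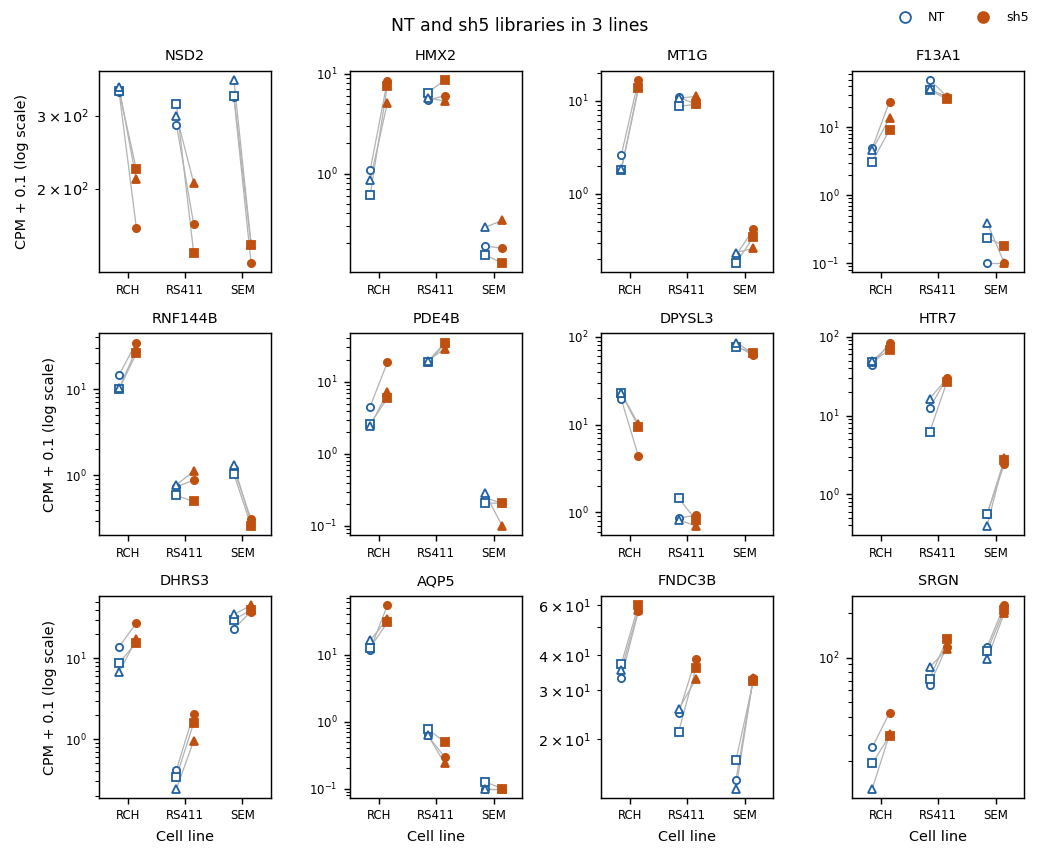
Level of NSD2 and 11 of the RCH genes in the NT (open blue) and sh5 (filled orange) libraries of RCH, RS411 and SEM, in CPM plus 0.1 on log axes that differ between panels, with grey lines joining same-numbered libraries. NSD2 is lower with sh5 in every pair, FNDC3B and SRGN are higher in every pair, and HMX2 and MT1G are higher in each RCH pair.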

How the data were processed

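Raw read counts per gene, as the authors deposited them, were used for the RCH, RS411 and SEM lines. The libraries were TruSeq stranded total RNA with RiboZero Gold, from RNeasy extracts, read on a GAIIx to 54 bases, as the labels' protocols state. Processing used Trimmomatic, STAR and featureCounts on hg19, per the submitters' processing notes; versions and strand setting were not stated. The authors' deposited normalized signal values equal the counts divided by 1 factor per library and hold part of the genes (16359), and served for limma 3.58.1 alone, on log2(value + 1). In each RCH library 27 rows whose gene names had turned into dates were left out, with 0.222% to 0.297% of the reads.

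The quasi-likelihood F-test of edgeR 4.0.16 (R 4.3.3; TMM, filterByExpr by arm, robust) was run on all 9 RCH libraries, arm and replicate number as terms and 4 residual degrees of freedom. Benjamini-Hochberg adjustment ran over all genes tested, and called means an adjusted p under 0.05. The 6-library fit has 2 residual degrees of freedom. Lines were compared in 1 fit of 18 libraries with a block of replicate number in each line. The design kept the replicate number as a block whatever the libraries showed. Deviations from the arm means correlated in each same-numbered NT and sh5 pair (r = 0.778, 0.614 and 0.336). NT 2 with sh5 3 (0.392) and NT 3 with sh5 2 (0.467) correlated more closely than NT 3 with sh5 3. Deviations within an arm cancel out, and NT 1 and sh5 1 stood apart. These correlations therefore cannot show that the numbers pair the libraries numbered 2 and 3. For NT and sh2 they were 0.233, 0.532 and 0.037, and for sh2 and sh5 0.161, 0.395 and 0.076. The third pair falls below the limit of 0.1 there. Counting error alone is covered by depth, and no 2 libraries matched within it (chi-square per degree of freedom at least 12.8).

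Named genes were NSD2, the 14 largest changes in each direction at 5 CPM or more in the higher arm, the 6 smallest p in each direction, up to 4 called members per list and any list member as an example, and up to 6 per direction that differed between hairpins or lines. Further genes among the 46 were named after their values were seen. The members, lists and tests were chosen with earlier results of these data known. A further gene list is not reported here. Alternatives were DESeq2 1.42.0, no block, the NT and sh5 libraries alone, RLE and upper-quartile factors, no filter, a mean of at least 5 CPM, a 2-fold minimum, limma, and leaving out libraries; leaving out sh2 libraries for sh5 against NT, and DESeq2 and left-out pairs in the 6-library fit, were added after the data were seen. In simulated data of 17148 genes for this comparison, 83% of genes changed 2-fold and 100% of genes changed 4-fold were called, with 7 false calls. The simulation gave every gene the same spread between replicates and every arm the same block shifts. It held no outlying library, and only genes above 1 CPM were changed. The shares called therefore do not tell how many real changes were found in these libraries. Tables and figures were made in Python 3.11.15 (pandas 2.3.3, matplotlib 3.10.9).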

Additional observations from a re-analysis of the deposited data

Results flagged for a closer look

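The sh5 effect differed by a test of the difference between RCH and SEM for 1191 genes and between RCH and RS411 for 359 genes, in the fit of 18 libraries. For the genes named by rule in these comparisons that passed between sh5 and NT in RCH, the log2 effect in RCH minus that in SEM was, for genes that differed, F13A1 (4.12), RNF144B (3.89), HMX2 (3.11), PDE4B (2.71), MT1G (1.83), DHRS3 (0.58), DPYSL3 (-1.20) and HTR7 (-1.96). The same difference against RS411 was 2.99 for HMX2, 2.94 for MT1G, 2.76 for AQP5, 2.37 for F13A1, 1.13 for RNF144B, 0.91 for PDE4B and -1.53 for DHRS3. All these genes were chosen on the same RCH libraries, which favours a larger effect in RCH.

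Levels behind these values vary widely. In SEM, F13A1 was at 0 to 0.295 CPM, PDE4B at 0 to 0.188 CPM and HTR7 at 0.295 to 0.467 CPM in NT and 2.29 to 2.79 CPM in sh5. In RS411, AQP5 was at 0.523 to 0.673 CPM in NT and 0.138 to 0.399 CPM in sh5, and DHRS3 at 0.143 to 0.319 CPM in NT and 0.851 to 1.97 CPM in sh5. F13A1 in RS411 was at 35.1 to 49.9 CPM in NT and 26.0 to 28.3 CPM in sh5, above its RCH level in both arms. PDE4B in RS411 was at 18.6 to 19.3 CPM in NT and 28.9 to 35.0 CPM in sh5. DPYSL3 in SEM was at 76.3 to 85.9 CPM in NT and 61.5 to 65.8 CPM in sh5.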

How the results depend on the processing

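The 46 genes between sh5 and NT became 4 without the replicate block, 536 with the NT and sh5 libraries alone and the block, 4 with those libraries and no block, 183 with DESeq2, 29 with upper-quartile factors, 502 without a low-count filter and 12 at a mean of at least 5 CPM. Leaving out libraries gave 0 to 431. The 536 ranged from 288 to 725 when a pair was left out. NSD2 had a log2 fold change of -0.80 without the block, and passed at -0.82 with the NT and sh5 libraries alone and the block, -0.83 with DESeq2 and -0.83 without a filter, with a range of -0.94 to -0.63 over left-out libraries. It passed in 3 of 12 fits with libraries left out. It did not pass without the block, under RLE or upper-quartile factors, at a mean of at least 5 CPM or with limma. Between sh5 and sh2 the 343 genes became 0 without the block, 944 with DESeq2 and 1617 without a filter, and 1 to 2850 with a library left out. The difference from SEM (1191) became 343 without the block and 1000 to 2205 with a library left out. The difference from RS411 (359) became 78 without the block, 650 without a filter and 296 to 1692 with a library left out. The 6 list members became 0 without the block, 68 with the NT and sh5 libraries alone and the block, 0 with those and no block, 29 with DESeq2, 75 without a filter, 1 at a mean of at least 5 CPM, and 0 to 57 with libraries left out.

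Against NT the sign turned when libraries were left out for RGS1 (log2 -0.017 to 0.45), LRRC3B (-0.40 to 0.035), AFAP1 (-0.28 to 0.11) and HS6ST2 (-0.11 to 0.28), none of which passed between sh5 and NT. The cause of these changes was not tested. Of the 46 genes, 46 passed with the NT and sh5 libraries alone and the block, with DESeq2, under RLE factors, without a filter, without sh2 1, without sh2 3 and without replicate 1. With upper-quartile factors 29 passed, without sh2 2 31, with limma 32 (6 tested did not), at a mean of at least 5 CPM 12 (17 tested did not), without the block 4, and with the NT and sh5 libraries alone and no block 3. Leaving out NT 1 or sh5 1 kept 12 each, sh5 2 13, replicate 2 4, NT 3 1, and NT 2, sh5 3 or replicate 3 none. Several of the genes lay below 1 CPM in NT, where few reads set the level.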
